A study of Arabidopsis thaliana with 6 samples.

Results

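Short alternative 3′ splice site bins are stretches of exon, at most 12 bases long, that lie between a pair of neighbouring acceptors. A transcript keeps the bin when the upstream acceptor is used and loses it when the downstream acceptor is used. The bins were chosen from the deposited set of alternatively spliced bins by the event name Alt3'ss and by a width of 12 bases or less. They number 1278, in 1212 loci, out of 2298 Alt3'ss bins of all widths and 7973 alternatively spliced bins of every kind. The rule used no measured value.

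The libraries came from wild-type Arabidopsis thaliana seedlings of the Col ecotype, grown for 9 days with 12 h of light and 12 h of darkness. White light was given to the light group from ZT18, 18 h after dawn, and lasted 2 h. The dark group had no pulse and remained in darkness, and all seedlings were collected at ZT20. Each group has 3 RNA-seq libraries made from total RNA with a TruSeq kit, called A, B and C here. Gene counts ran from 8695843 to 12689543 per library and junction reads from 3188347 to 4502167. Light library C was the shallowest. The labels name the source only as pooled tissue, and all 4 root and all 6 leaf and guard cell markers looked for passed the filter on low counts. Summed root markers ran from 200 to 216 CPM (counts scaled to a common library total) in dark and from 161 to 176 in light, and summed leaf markers from 13534 to 14601 and from 14893 to 15524. The root markers SCR, COBL9 and EXPA7 were called higher in light and PHO1, which carries most of the root sum, lower (155 CPM in dark and 106 in light). Of the leaf and guard cell markers CAB2 (900 and 2788 CPM) and AS1 were called higher, FIL, YAB3 and FAMA lower, and RBCS1A was not called. The part of these markers in the results was not tested, and in whole seedlings fewer cells of a type and less RNA per cell cannot be told apart.

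As background, an acceptor is the end of an intron, where the second step of splicing joins it to the next exon. The U2AF heterodimer binds the pyrimidine tract and the bases of the acceptor, SF1 binds the branch point, and the second-step factors PRP16, PRP17, PRP18, PRP22 and the SMP proteins act as the exons are joined. When acceptors lie a codon apart, as in tandem NAGNAG acceptors, the choice adds or removes an amino acid without moving the reading frame. When their distance is not a multiple of a codon, the choice within a coding region shifts the frame and can make a transcript a target of nonsense-mediated decay. The files mark no coding regions, so frame here refers to the width of the bin alone.

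The bins were mostly a codon or a few codons long. Width 3 alone held 480 of the 1278 bins (37.6%), and width 6 held 181 (14.2%). In all, 828 bins (64.8%) had a width divisible by 3 and 450 (35.2%) did not. Next after these came width 4 with 135 bins, width 5 with 107 and width 9 with 99. The shortest bins, of 2 bases, numbered 34. Most hosts had a single bin: 63 loci held more than 1, and the most in a locus was 4, in SMC1, a cohesin subunit.

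**Figure D1:**
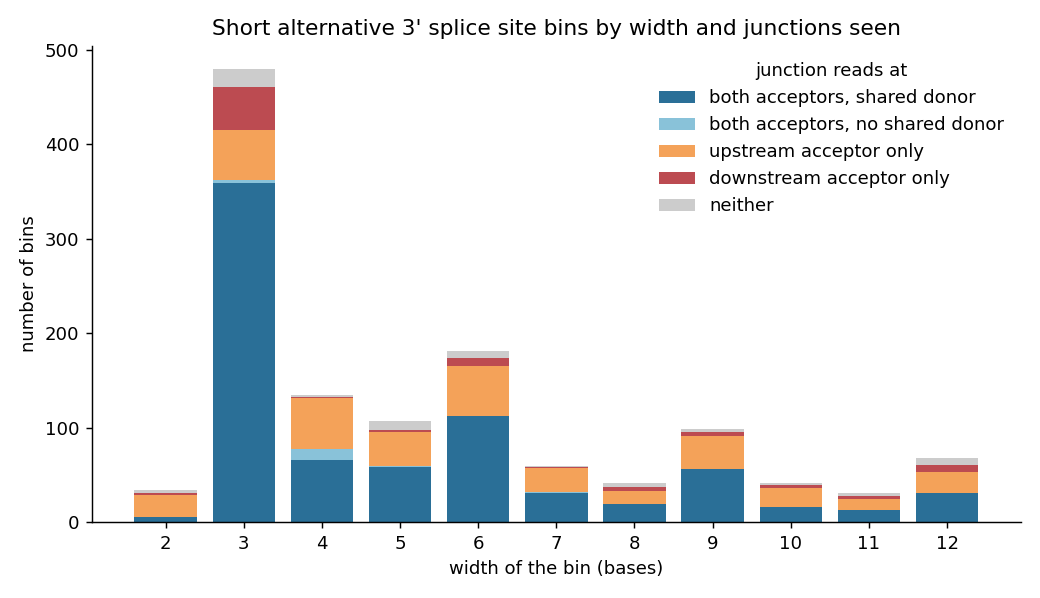
Number of short alternative 3′ splice site bins (vertical axis) at each width in bases (horizontal axis), coloured by the acceptors at which junction reads were counted. Width 3 stands out with 480 bins, and both acceptors were seen for 75.4% of them, against 17.6% of the bins of width 2.

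Both acceptors were in use at most of the bins. Junction reads, which span the spliced intron, were counted at both from a shared donor at 767 of the 1278 bins, and from separate donors at a further 16. At 348 bins junction reads were seen at the upstream acceptor alone, at 83 at the downstream acceptor alone and at 64 at neither. Both acceptors were seen for 75.4% of the bins of width 3, for 61.9% of width 6 and for 57.0% of width 4. Over all widths divisible by 3 it was 67.8%, and over the others 49.3%. Depth was not equalised between bins for these counts. At least 20 reads at the pair in every library were available for 253 bins in 245 loci, of which 120 have width 3, and shares are given for these.

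At most pairs the upstream acceptor, which keeps the bin, took most of the reads. Its share was above 50% at 181 of the 253 pairs and below at 72. The width 3 pairs were spread over the whole range. Their median share over the 6 libraries was 62.5%, with quartiles at 26.8% and 93.0%, and the upstream acceptor led at 73 of 120. For width 6 the median was 96.0% and the upstream acceptor led at 34 of 38. For widths 4 and 5 together it was 97.1%, with 34 of 41 led by the upstream acceptor, and for widths 10 to 12 it was 95.9%, with 15 of 19. Widths 7 to 9 had a median of 89.9% and a first quartile of 37.5%, and the upstream acceptor led at 21 of 30. The 4 pairs of width 8 had a median of 52.8%, and the 2 of width 11 one of 6.58%.

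Pairs in which both acceptors carried a sizeable share were mostly of width 3. The less used acceptor had at least 20% of the reads at 53 of 120 width 3 pairs (44.2%), at 9 of 38 width 6 pairs (23.7%) and at 3 of 41 pairs of width 4 or 5 (7.32%). Across all widths this held for 67 of 188 pairs with a width divisible by 3 (35.6%) and for 4 of 65 of the others (6.15%). These levels move with the depth asked for, with at least 50 reads, 48 pairs of width 3 were left and their median in dark was 76.0% in place of 61.3%. Introns ending at the upstream acceptor were of like length in both classes. At widths divisible by 3 the median was 104 bases, with quartiles at 87 and 245. At the other widths it was 103 bases, with quartiles at 86 and 242.

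**Figure D2:**
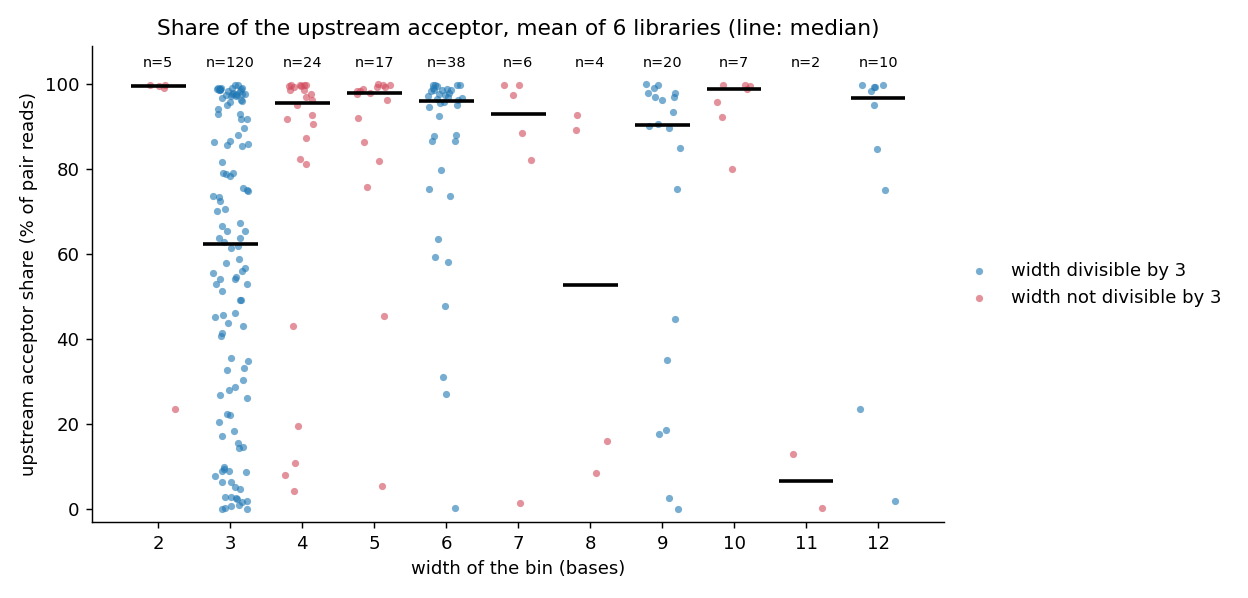
Share of the upstream acceptor in the reads of both acceptors (vertical axis, per cent, mean of 6 libraries) for each of 253 bins, by width in bases (horizontal axis, points spread sideways). Black lines are medians: width 3 pairs fill the whole range around 62.5%, while the medians of width 4, 5 and 6 lie above 95%.

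The 4 width 3 pairs named next came nearest to an even split. FEI1, a receptor-like kinase, had upstream shares of 47.1%, 42.9% and 52.5% in the dark libraries and 57.7%, 45.5% and 62.7% in the light libraries, so the groups overlapped. ACBP4, an acyl-CoA-binding protein, had 44.4%, 50.0% and 50.0% in dark and 53.7%, 51.9% and 45.0% in light. BIM1, a transcription factor of brassinosteroid signalling, had 47.6%, 43.6% and 50.0% in dark and 46.2%, 46.9% and 60.9% in light. In these 3 genes and in AT4G28706 (53.5% ± 7.49 in dark and 52.4% ± 7.77 in light, SD, n = 3), neither acceptor led and the light libraries overlapped the dark ones.

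The deepest pairs were far from even. CA1, a chloroplast carbonic anhydrase, carries a 2-base bin whose upstream acceptor had all 2894, 2533 and 3132 junction reads of the dark libraries and all but 29 of 3984 in light library B. Where no read of 2894 fell on the downstream acceptor, its share may still be up to 0.104% (3 counts of the total, counting error only). PSBQA, a protein of the oxygen-evolving complex, stood at the other end: the downstream acceptor had all 2294 and 2125 reads in dark libraries A and B and 2079, 2177 and 1520 in light. AT1G11860 kept its 3-base bin in 97.6% ± 0.907 of reads in dark and 97.9% ± 0.734 in light, CPN10, a chloroplast co-chaperonin, in 97.5% ± 0.626 and 97.5% ± 0.625, and RPE, ribulose-phosphate epimerase, its 6-base bin in 86.4% ± 2.42 and 86.7% ± 1.04. AT1G68590, named PSRP3/1 in RefSeq, a plastid ribosomal protein, has a 9-base bin in a locus that shares coordinates with another. All 762, 644 and 823 of its pair reads were upstream in dark, and 617 of 617, 660 of 661 and 437 of 437 in light. In CPN10 and RPE the group means lay closer together than the libraries of either group. The host of CPN10 rose by 0.80 ± 0.08 on the log2 scale meanwhile (adjusted p = 3.1e-07, edgeR), and that of AT1G11860 by 0.55 ± 0.06 (adjusted p = 1.1e-06, edgeR).

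At 8 of the 253 pairs a junction had 0 reads in some library and 20 or more in another, and these were picked out after their values were seen. At AT4G39200 the downstream acceptor had 115 and 133 reads in light libraries A and B and 0 in the other 4, while the bin itself was counted 814 and 872 times there and between 605 and 1073 times in the others. At AT2G26500 it had between 58 and 113 reads in 5 libraries and 0 in light library B. The upstream acceptor of PSBQA had 66 reads in dark library C and 0 elsewhere, and its bin was counted 75 times there and 9 to 19 times in the others. RLM3, a disease resistance protein, had 0 downstream reads in dark library A against 42 and 41 in dark B and C. Its mean difference of 19.2 points was the greatest among the 253 pairs, and 18 points was the greatest at the 245 pairs without such a junction. The other 4 such pairs are UBC1, AT2G33830, CA1 and AT4G29410, and none of the 8 had its dark and light libraries apart.

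The light pulse was then compared with darkness. Of the 1278 bins, 702 passed the filter on low counts and 576 did not, 77 of them with no count in any library. Usage, the count of the bin relative to that of its gene, passed the test at 1 of the 702 (0.142%), against 1.19% of all 3348 bins tested (edgeR's quasi-likelihood F test, adjusted p under 0.05 over all bins). At an unadjusted p under 0.05 it was 39 of 702 (5.56%), 17 higher and 22 lower in light, against 9.05% of all bins. The median change in usage was -0.006 on the log2 scale and its median size 0.135, with a median standard error of 0.217; over all bins the median size was 0.141. By width, 11 of 227 bins of width 3 were under 0.05 unadjusted and 10 of the 101 of width 4. Among widths divisible by 3 it was 20 of 425 and among the others 19 of 277. In simulated data with known changes, the test found 74.3% of bins changed 2-fold and 24.3% of those changed 1.5-fold. These changes were placed only in bins above a minimum mean count, at a fixed spread between libraries. The rate for bins with fewer reads was not measured.

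The bin that passed is in ROC2, a cyclophilin of the peptidyl-prolyl isomerase family, at positions 20807522 to 20807523 of chromosome 3 (TAIR10), 2 bases wide. Its bin was counted 33, 37 and 54 times in dark and 38, 46 and 35 times in light. Its gene was counted 535, 480 and 662 times in dark and 1046, 1174 and 785 times in light. Bin counts overlapped between the groups while gene counts were apart, all 3 light libraries being higher. Usage was 7.34% of the gene count in dark and 4.00% in light, a change of -0.89 ± 0.18 on the log2 scale (adjusted p = 0.0107, edgeR). The gene rose by 1.12 ± 0.08 (adjusted p = 9.5e-09, edgeR). Junction reads were seen at the upstream acceptor alone, 31, 35 and 51 in dark and 36, 43 and 34 in light, and 0 at the downstream one, so the choice between acceptors could not be measured there. Without dark library B (adjusted p = 0.0616), without dark C (adjusted p = 0.121) or with DESeq2 (adjusted p = 0.146) the call was lost.

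The next in rank, chosen after their values were seen, did not pass. The 3-base bin of emb1138, a chloroplast RNA helicase, was counted 519, 478 and 539 times in dark and 474, 462 and 331 in light, 4.41% and 5.13% of its gene, a change of 0.22 ± 0.06 (adjusted p = 0.0737, edgeR). The upstream share at its acceptors was 78.8% ± 1.20 in dark and 79.3% ± 1.11 in light. The 5-base bin of AT2G15580 was counted 20, 17 and 19 times in dark and 24, 41 and 23 in light, a change of 0.85 ± 0.24 (adjusted p = 0.0982, edgeR).

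The choice between the acceptors of a pair was tested on junction counts. Of 123 bins whose junctions passed the filter, 0 passed at an adjusted p under 0.05 and 0 at an unadjusted one (edgeR diffSpliceDGE), against 0.776% and 5.09% of the 2062 junctions tested. By DESeq2 it was 0 and 0, and by a quasi-binomial test 0 and 4, against 12.1% of all junctions at the unadjusted threshold. In simulated data diffSpliceDGE found 0% of junctions changed 2-fold and 21.2% of those changed 4-fold, with 0 false calls. The quasi-binomial test found 14.3% and 72.7%, with 12 false calls beside 4, 8 and 48 true ones at 1.5-, 2- and 4-fold, and DESeq2 was not simulated. In that simulation diffSpliceDGE and the quasi-binomial test thus mostly missed shifts of up to 2-fold. The changes were placed only at ends with a pair of junctions above a minimum mean count, at a fixed spread between libraries. Whether that spread is like that of the measured pairs was not tested, so the rate for these pairs is not known.

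The measured differences were small. The median size of the difference between light and dark was 1.73 points of upstream share over the 253 pairs, and 1.72 over 737 ends of every kind with a pair of annotated junctions. The 737 ends were not cleared of these pairs, 243 of which have both junctions annotated, so the medians are not independent. The difference was under 5 points at 200 pairs (79.1%), over 10 at 11. The share was higher in light at 132 pairs and lower at 121. For width 3 the median size was 2.28 points and for widths not divisible by 3 it was 0.956. Among pairs with a pooled share between 5% and 95%, chi-square per degree of freedom between the libraries of a group had a median of 0.533 over 138 pairs in dark and 0.911 over 134 in light, where counting alone gives 0.693.

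**Figure D3:**
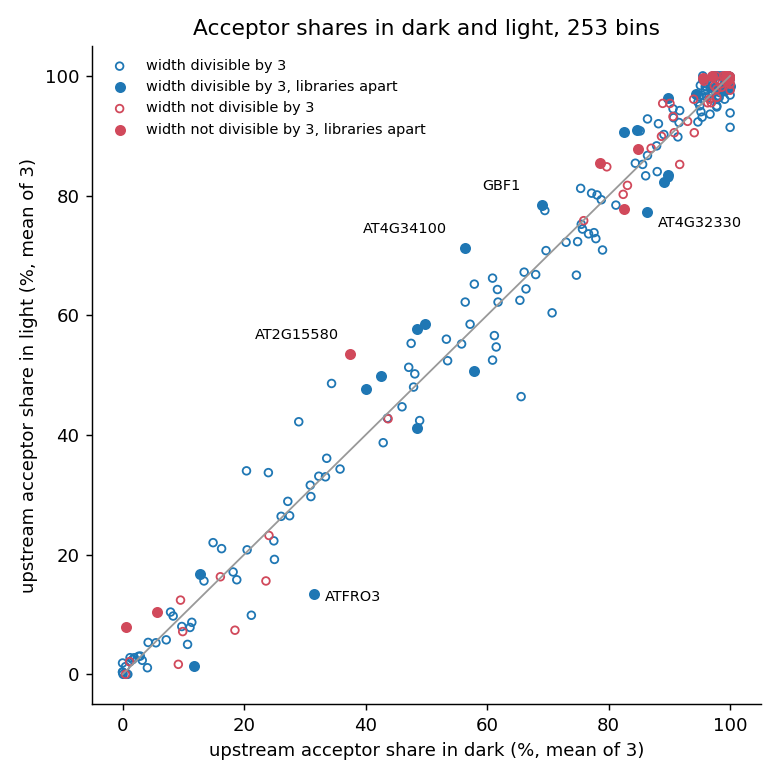
Upstream acceptor share in light (vertical axis) against dark (horizontal axis), per cent, mean of 3 libraries each, for 253 bins; filled points have all light libraries above or all below the dark ones. The points follow the diagonal, and the 29 filled ones are spread along it on both sides.

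At 29 of the 253 pairs (11.5%) the light libraries lay wholly apart from the dark ones. The figure was 13.2% for the 737 ends with a pair of annotated junctions, so this share is near the background. That background can hold the 253 pairs themselves, which were not taken out, and 243 of them have both junctions annotated. The share was higher in light at 19 of the 29 and lower at 10. All 7 such pairs of width 4 or 5 and all 5 of width 6 were higher in light, while those of width 3 divided into 7 and 7. Both such pairs of widths 7 to 9 and the 1 of widths 10 to 12 were lower. These directions are of pairs picked for having their groups apart. Over all measured pairs, those of width 4 or 5 divided into 23 higher and 18 lower in light, and those of width 6 into 27 and 11. For width 3 it was 63 and 57, for widths 7 to 9 13 and 17, and for widths 10 to 12 6 and 13. With 3 libraries against 3, an exact permutation test cannot go below p = 0.1.

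Among the pairs higher in light, AT2G15580 had the greatest difference in mean among those with groups apart. Its 5-base bin lies at positions 6798522 to 6798526 of chromosome 2, and the upstream share was 42.1%, 40.6% and 29.5% in dark and 42.9%, 62.7% and 55.3% in light. The groups did not overlap, but light library A was within 1 point of the highest dark library, and the means were 37.4% ± 6.86 in dark and 53.6% ± 10.0 in light (SD, n = 3), not called. AT4G34100, named CER9 in RefSeq, an E3 ubiquitin ligase of cuticular wax formation, keeps a 3-base bin at positions 16333643 to 16333645 of chromosome 4 in 56.9%, 54.5% and 57.5% of pair reads in dark and 80.0%, 68.6% and 65.4% in light. All light libraries stood above all dark ones, with 25 to 51 reads a library. The 95% Wilson interval of light library A ran from 60.9% to 91.1% and that of dark library A from 43.3% to 69.5%.

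GBF1, a bZIP factor that binds the G-box of light-regulated promoters, has a 6-base bin. Its upstream share was 67.4%, 75% and 64.8% in dark and 79.5%, 76.7% and 79.3% in light, and all light libraries stood above the dark ones. The GBF1 gene fell (log2 change -0.80 ± 0.07, adjusted p = 9.3e-08, edgeR), and the locus shares coordinates with another. ARF2, an auxin response factor that the files call HSS, had 45.1%, 34.8% and 40.1% at its 3-base bin in dark and 46.1%, 45.4% and 51.7% in light. Its difference of 7.69 points was 5.1 without dark library B. AT3G43720, named LTPG2 in RefSeq, a lipid transfer protein, had 81.3%, 85.7% and 80.4% at its 6-base bin in dark and 86.7%, 97.7% and 87.8% in light. Light library B was highest, and the difference of 8.24 points was 4.75 without it. AT5G60980 (48.5% ± 2.65 and 57.7% ± 4.97) and AT4G30760 (49.8% ± 2.76 and 58.5% ± 4.43) were near an even split at their 3-base bins in dark.

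HEME1, uroporphyrinogen decarboxylase of chlorophyll and haem synthesis, had few reads at its upstream acceptor. Of its pair reads 0 of 85, 1 of 68 and 0 of 98 were upstream in dark, against 8 of 84, 1 of 60 and 7 of 55 in light. Light libraries A and C were high at 9.52% and 12.7%, and light B, at 1.67%, was close to dark B at 1.47%. A count of 0 of 85 allows a share of up to 3.53%. The bin is 4 bases wide, at positions 5020780 to 5020783 of chromosome 3.

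Among the pairs lower in light, ATFRO3, a ferric reductase, had the greatest difference in mean among those with groups apart, at a 3-base bin at positions 8152871 to 8152873 of chromosome 1. Its upstream acceptor had 6 of 20, 6 of 22 and 13 of 35 reads in dark and 1 of 30, 3 of 27 and 7 of 27 in light. Dark libraries thus lay between 27.3% and 37.1%, and light ones between 3.33% and 25.9%, with light C close to dark. AT5G23610 had 8.33%, 18.9% and 8% in dark and 4.00%, 0% and 0% in light, from 23 to 37 reads a library. Its counts of 0 in light libraries B and C allow shares of up to 13% and 12.5%, above dark A and dark C. AT4G32330 had 86.3%, 86.1% and 86.4% in dark and 81.8%, 80.0% and 69.7% in light, the dark libraries lying within a point of each other. The difference at AT5G23610, -10.4 points, was -6.83 without dark library B, and that at AT4G32330, -9.1 points, was -5.37 without light C.

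The other 5 lower in light among those named were IQD14, a calmodulin-binding protein, NSI, an acetyltransferase, PDF2, here prefoldin 2, AT3G52920 and AT4G15510, the PsbP-domain protein PPD1 in RefSeq. The smallest difference was at AT4G15510, with means of 82.5% ± 2.01 in dark and 77.8% ± 4.08 in light, and the greatest at AT3G52920, with 48.5% ± 1.65 and 41.1% ± 4.66. At PDF2 the groups were narrowly apart, with 87.1% in the lowest dark and 87.0% in the highest light library, as they were at IQD14 with 54.9% and 54.5% and at NSI with 86.1% and 85.7%. With 1 library left out at a time, each of the 5 differences kept its sign. The largest were -9.01 points at IQD14, -9.18 at PDF2, -9.03 at AT3G52920, -5.99 at AT4G15510 and -8.25 at NSI. The smallest differences follow. Without light library A that of IQD14 went from -7.1 to -4.18 points and that of PDF2 from -6.83 to -3.94. Without light library C that of AT3G52920 went from -7.45 to -4.78 and that of AT4G15510 from -4.74 to -2.39. Without dark library B that of NSI went from -6.37 to -3.5. The IQD14 gene fell (log2 change -1.07 ± 0.06, adjusted p = 1.5e-09, edgeR). The remaining 13 of the 29, of which 11 were higher in light, differed by between -1.72 and 7.24 points.

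Bins in genes of the clock and of splicing were looked up by name. LHY, a MYB factor of the morning clock, has a 3-base bin whose upstream share was 56.7%, 60.6% and 56.3% in dark and 59.6%, 69.8% and 66.2% in light, so the groups overlapped by the highest dark library, and its gene level did not pass (-0.06 ± 0.07, adjusted p = 0.468, edgeR). SR33, the SR protein SCL33, had 25%, 21.6% and 25.5% in dark and 41.2%, 35.7% and 24.2% in light, with light library C among the dark values. RS41, another SR protein, had 31.4%, 21.4% and 22.2% in dark and 25%, 17.3% and 15.4% in light. SR34, an SR protein, keeps a 4-base bin in 82.4% ± 2.57 of pair reads in dark and 80.2% ± 1.12 in light, while its gene fell (log2 change -0.52 ± 0.06, adjusted p = 2.1e-06, edgeR). Of 4 bins in SR genes and 3 in clock genes, these 4 had enough reads, and in none of the 4 did the groups lie apart. The difference at SR33, 9.7 points, was 5.97 without light library A, and that at RS41, -5.8 points, was -2.6 without dark A. At SR34 it was -2.18 points, -0.951 without dark A and -3.51 without dark B.

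**Figure D4:**
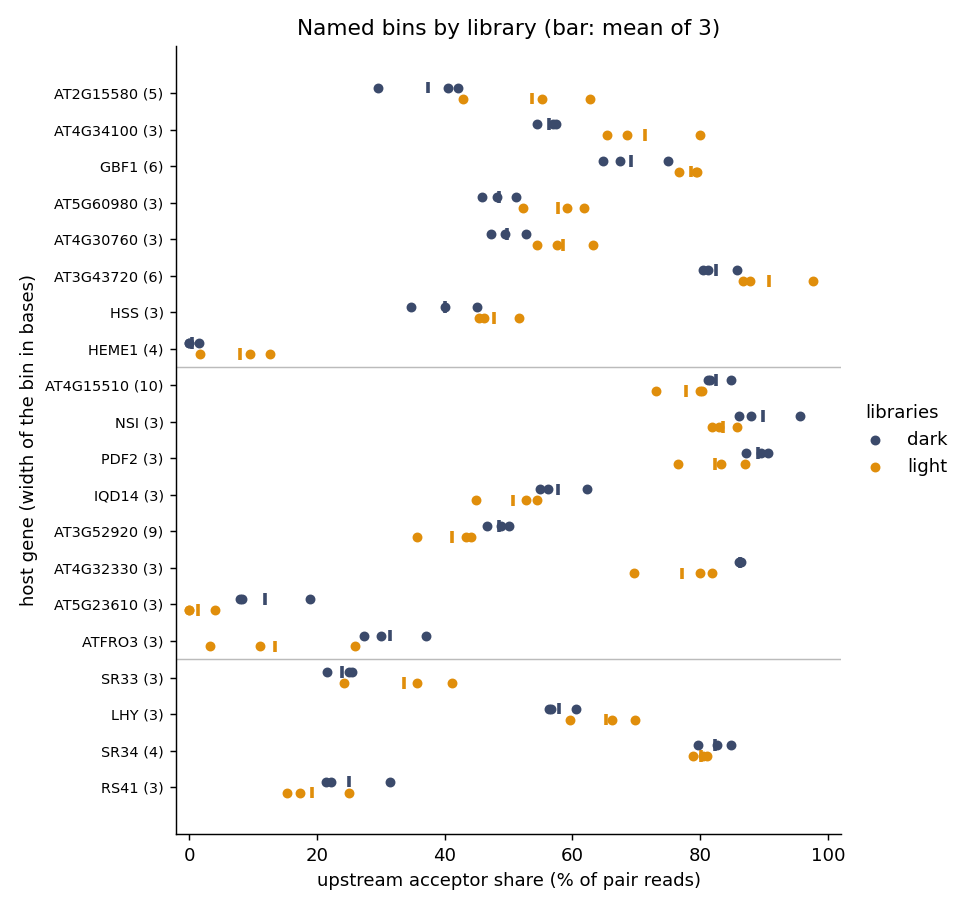
Upstream acceptor share (horizontal axis, per cent) in each library for the 8 pairs each way with the greatest difference in mean among those with groups apart, and for the 4 in clock and splicing genes (vertical axis, width in bases in brackets; bars are means of 3). Light points overlap dark ones in all 4 of the last group, LHY and SR33 included.

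By width and frame, light and dark differed by little in the median of the bins. For widths divisible by 3 the median share was 79.0% ± 1.17 in dark and 78.1% ± 1.98 in light (mean and SD of the medians of 3 libraries, 188 bins), and the libraries overlapped. For width 3 alone it was 61.3% ± 1.41 and 61.8% ± 1.36 over 120 bins, and the libraries overlapped. With reads summed in each library, width 3 had 55.0% ± 0.565 in dark and 57.1% ± 0.332 in light, the light libraries all higher. With each of its bins at a fixed weight, its reads in all 6 libraries, it had 56.4%, 56.4% and 56.5% in dark and 55.7%, 55.2% and 56.2% in light, the light libraries all lower. For widths not divisible by 3 it was 95.7% ± 0.202 in dark and 97.1% ± 0.707 in light over 65 bins, and here the 3 light medians, 97.9%, 96.6% and 96.8%, stood above the 3 dark ones, 95.5%, 95.9% and 95.7%. With fixed weights the same 65 bins had 87.9% ± 0.276 in dark and 88.3% ± 0.249 in light, and the libraries overlapped.

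The pooled junction reads of the measured pairs gave another picture. When reads were summed over the 253 pairs, the upstream acceptor held 71.8%, 71.2% and 71.8% in the dark libraries and 74.4%, 74.1% and 74.5% in the light ones. All light libraries stood above the dark ones. With each bin at a fixed weight the means were 73.0% ± 0.163 in dark and 72.9% ± 0.0821 in light, and the libraries overlapped. The difference of light from dark was 2.75 points with summed reads and -0.04 points with fixed weights.

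The widths 7 to 9 show this most. Their summed share was 62.8%, 59.4% and 64.1% in dark and 73.1%, 71.6% and 74.0% in light, and with fixed weights 67.1% ± 0.416 and 67.1% ± 0.502. A pair of genes with deeply read 9-base bins changed in level, and both were named after their values were seen. AT1G56220 used mainly the downstream acceptor, with upstream reads of 62 of 388, 55 of 435 and 73 of 360 in dark and 18 of 77, 15 of 77 and 9 of 45 in light, and the gene fell (log2 change -2.26 ± 0.08, adjusted p = 5.0e-12, edgeR). NPQ2, zeaxanthin epoxidase of the xanthophyll cycle, used the upstream acceptor for 94, 63 and 64 of its reads in dark, with 0 downstream. In light it did so for 284 of 289, 290 of 298 and 269 of 271, shares of 98.3%, 97.3% and 99.3%. The counts of 0 in dark still allow downstream shares of up to 3.19%, 4.76% and 4.69% (counting error only). The groups lay apart at this pair, by -1.72 points. The NPQ2 gene rose by 2.12 ± 0.07 (adjusted p = 3.6e-12, edgeR). At width 6 the summed share was 88.3% ± 0.451 in dark and 89.8% ± 0.775 in light, and with fixed weights 88.5% ± 0.443 and 89.8% ± 0.425. Light libraries were above dark ones in both of these summaries. In the median over its 38 bins they were not: it was 95.1% ± 0.529 in dark and 95.9% ± 1.35 in light, and the libraries overlapped.

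**Figure D5:**
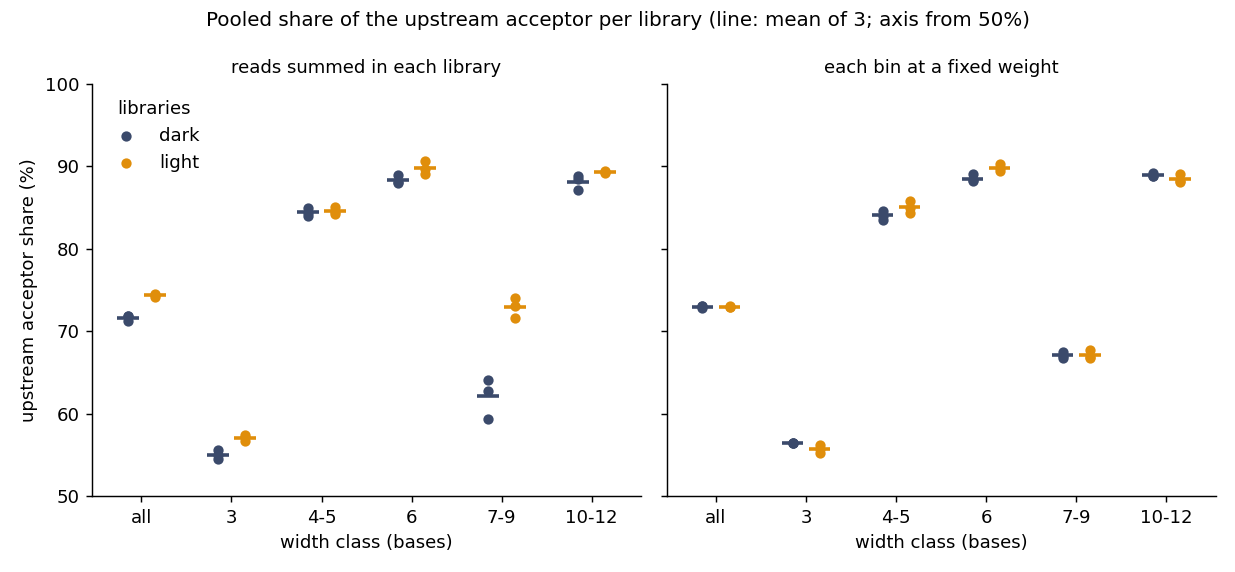
Share of the upstream acceptor (vertical axis, per cent, from 50) in each dark and light library for all pairs and by width class in bases (horizontal axis), with reads summed in each library on the left and each bin at a fixed weight on the right; lines are means of 3. The gap at widths 7 to 9, from 62.1% to 72.9%, closes on the right, where both means are 67.1%.

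Many hosts of the bins changed with the pulse. Of 1212 hosts 1144 passed the filter, and 363 were higher and 352 lower in light, 62.5% in all, against 56.3% of all 20151 genes (edgeR's quasi-likelihood F test). Among those with a measured pair, 11 of the 253 bins had a host that changed at least 2-fold and was called. The median size of their difference in upstream share was 2.11 points, against 1.66 points for the other 242, and the groups lay apart at 3 of the 11 and 26 of the 242.

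Genes that recognise acceptors or act in the second step of splicing were mostly lower after the pulse. Of the 14 on the list, 10 fell and 1 rose, against 27.4% and 28.9% of all genes, and their median change was -0.36. Without normalization beyond library totals, which moves all genes by -0.14, 11 fell and 0 rose. The small subunits of U2AF, which contact the acceptor itself, were among the lowest: U2AF35A went from 103 ± 6.14 to 48.0 ± 2.27 CPM (-0.95 ± 0.06, adjusted p = 4.0e-09, edgeR) and U2AF35B from 103 ± 4.41 to 44.7 ± 1.33 CPM (-1.06 ± 0.06, adjusted p = 8.6e-10, edgeR). PRP16, a helicase of the second step, went from 139 ± 10.1 to 63.0 ± 0.378 CPM, SKIP from 160 ± 7.06 to 85.0 ± 1.31 and U2AF65A, the large subunit, from 163 ± 15.7 to 114 ± 5.50. PRP17 alone was called higher (0.20 ± 0.06, adjusted p = 0.0167, edgeR), and without normalization it was not (0.05, adjusted p = 0.534, edgeR). Of the decay factors UPF1, UPF2 and UPF3, the last fell (-0.22 ± 0.06, adjusted p = 0.00676, edgeR), and the others did not pass (0.12 ± 0.06 and 0.07 ± 0.06). No gene of the acceptor list hosts a bin.

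At the edge of the rule, the deepest bins of 12 and of 13 bases were alike in kind, given without a test. At 12 bases P40, a ribosomal protein, kept its bin in 99.9% ± 0.117 of pair reads in dark and 99.8% ± 0.179 in light, GR-RBP4, a glycine-rich RNA-binding protein, in 24.9% ± 1.15 and 22.3% ± 8.28, and AT5G51040 in 99.6% ± 0.750 and 99.3% ± 0.680. At 13 bases AT2G05830 had 100% in dark and 99.2% ± 1.37 in light, AT5G39940 97.4% ± 4.44 and 97.8% ± 3.85 (with 14 pair reads in its shallowest library, under the minimum of 20), and AT5G59480 3.57% ± 0.438 and 3.34% ± 3.26.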

How the data were processed

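What the authors deposited are raw counts of reads for genes, alternatively spliced bins and splice junctions, a column per library. The submitters' processing notes name TopHat2 2.0.9, R 3.1 and TAIR10; the counting program and its use of strand are not stated in those sources. Column letters match no replicate number of the labels, so libraries are known by letter. Since no label speaks of separate cultures, p-values may reflect technical spread alone.

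The bins, lists and tests were chosen with earlier results of these data known. Gene levels, bin usage (offset: log of the gene's count plus 0.5) and junction choice were tested with edgeR 4.0.16 in R 4.3.3 after filterByExpr, adjusted by Benjamini-Hochberg over every feature tested. Changes are log2 values of light over dark, with standard errors. Strand was read from the way junctions meet at a bin, and was not found for 64 bins. Junction choice had been planned over donors and was run over every shared junction end. The reason is that strand is known only for loci whose junctions meet a bin of an alternative acceptor or donor. The upstream share is upstream reads over the reads of the pair from its deepest donor. Bin counts and upstream junction reads are nearly one measure (median ratio 1.06). Of the bins, 237 share coordinates with another locus, as do 50 of the 253 measured pairs, and reads of a neighbour may be counted in them. Intervals and limits at 0 cover counting error only. Methods were tested on simulated data.

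Bins named are those called, the 8 each way with the greatest difference among pairs with groups apart, the 8 deepest, the 4 of width 3 nearest to 50%, those in listed genes with 20 reads, and the edge of the rule. Pairs with a junction at 0, emb1138, AT2G15580 for its usage, AT1G56220 and NPQ2 were named after their values were seen. Alternatives were each library left out, other filters, DESeq2 1.42.0, other read minimums and other summaries. Host groups by RefSeq description and sequences at the acceptors are not analysed here. The list of decay genes is given without 1 member, which is not reported here.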

Additional observations from a re-analysis of the deposited data

How the results depend on the processing

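The columns carry letters, A to C in both groups, that match no replicate number of the labels. A replicate block by these letters, chosen after seeing the data, left 1 bin called for usage and 0 for acceptor choice, with 372 hosts higher and 358 lower. Libraries with the same letter did not deviate together throughout: across 20151 genes, which are not independent replicates, their deviations from the group means correlated at -0.07, 0.12 and -0.04. Dark A correlated best with light C (0.10), dark C with light A (0.13) and dark B with light B. The count of bins whose usage was called, 1, became 0 with DESeq2 and 7 without the filter on low counts (of 1201 tested, HEME1 and PSBQA among them), and ran from 0 to 2 as each library was left out. Without the 2 libraries richest in ribosomal RNA (dark C and light A) 1 bin was called, in AT1G55535, and ROC2 was not (adjusted p = 0.243, edgeR). Calls of acceptor choice stayed at 0 in all alternatives run. The count of pairs with groups apart, 29, was 14 of 112 with at least 50 reads, 42 to 52 as each library was left out and 73 without the 2 libraries, since fewer libraries are easier to part. The median share in dark for widths divisible by 3, 79.0%, was 73.9% with at least 10 reads, 87.2% with at least 50, 77.6% summed over donors, 64.0% from summed reads and 65.2% with fixed weights. For other widths, 95.7% became 91.3%, 97.3%, 87.2% from summed reads and 87.9% with fixed weights. For width 3, 61.3% became 76.0% with at least 50 reads, 55.0% from summed reads and 56.4% with fixed weights. The difference of light from dark, -0.86 points for widths divisible by 3, was 2.11 from summed reads, that of 1.41 for other widths was 0.37 with fixed weights, and that of 0.58 for width 3 was -3.09 with at least 50 reads; the cause was not tested. As each library was left out, these differences ran from -1.51 to 0.28, from 1.01 to 1.67 and from -0.18 to 1.37, and the dark medians from 78.4% to 79.5%, 95.6% to 95.8% and 60.6% to 62.0%. Fixed weights, the quasi-binomial test, the limit to donors and leaving out pairs with a junction at 0 were chosen after seeing the data. Hosts higher and lower in light numbered 261 and 442 without normalization. Reads per pair, with a median of 65.5 a library over the 253, set the precision of the shares.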
